A study of Mus musculus with 14 samples.

Results

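The Fanconi anaemia and homologous recombination genes were followed through the RNA, m6A and RNA-protein binding data of mouse muscle stem cells (MuSCs), the resident progenitors of skeletal muscle. The 39 genes were a named list of known roles matched by symbol, drawn up with earlier results of these data known, and all 39 were among the 14837 genes of the RNA table. Lin28a+ MuSCs, labelled Lin28a positive, were compared with MuSCs labelled Control, and both were untreated except for the immunoprecipitation. The study sorted the Lin28a+ cells from skeletal muscle of Lin28a-CreERT2; LSL-tdTomato mice, in which tamoxifen-dependent Cre driven by Lin28a switches on a red reporter, and cultured MuSCs on Matrigel. There were 2 libraries per group for input RNA, for immunoprecipitation with an m6A antibody (m6A-RIP) and with an Igf2bp3 antibody (Igf2bp3-RIP), and 2 libraries of Lin28a-RIP from Lin28a+ MuSCs alone. Nothing in the labels says that the 2 libraries came from separate animals, so the p-values measure at most the spread between these libraries, which may be technical, and the error of counting. For 35 of the 36 genes tested in input RNA, and for 24 of 27 tested for m6A-RIP relative to input, the counting error, taken from input values that were not whole before rounding, was the larger error.

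The Fanconi pathway repairs crosslinks between DNA strands. A core complex of FANC proteins with the E2 enzyme UBE2T attaches ubiquitin to the FANCD2-FANCI pair, and USP1 with its partner WDR48 takes it off again. Homologous recombination then copies the sister chromatid: BRCA1, BARD1, BRCA2 and PALB2 act at resected ends, mediators such as XRCC2 and XRCC3 and the RAD54 proteins help strand exchange, and helicases and nucleases separate the joined molecules. These genes are known for being transcribed mostly as cells enter S phase, and m6A is a methyl mark on mRNA that reader proteins such as Igf2bp3 bind.

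The input libraries held 4842915 to 6220960 counts, the m6A-RIP libraries 21350962 to 31830638, the Igf2bp3-RIP libraries 9215355 to 34142094 and the Lin28a-RIP libraries 33908110 and 36610494. All 9 myogenic markers were listed, which marks the cells as myogenic and says nothing of their Lin28a status. The summed level of these markers was 9240 to 11900 CPM, where CPM is the count scaled to library size (to the plain total for these marker sums). Their members did not move together: Myog, a differentiation factor, rose by 1.86 ± 0.02 (log2 fold change ± SE) with Pax7 and Cdh15, while Myf5 fell by 1.21 ± 0.04 with Des, Sdc4 and Vcam1, and the part of this difference in the values that follow was not tested. Of 5 endothelial markers only Pecam1 was listed, at 2.1 to 2.74 counts, and 4 of 5 macrophage markers summed to 1.54 to 2.63 CPM. Of 5 pericyte or smooth muscle markers 4 were listed, at 5310 and 5400 CPM in sum in control and 7500 CPM in both Lin28a+ libraries. This was nearly all Acta2 (0.46 ± 0.02), a gene that cultured myoblasts also express. On low counts, Pdgfrb changed by 1.27 ± 0.39 and Rgs5 by -3.35 ± 1.06. Of 7 fibro-adipogenic progenitor markers 4 were listed at 122 to 133 CPM in sum, nearly all Col3a1. Among them Ly6a rose by 1.61 ± 0.24, while Col3a1 and Col1a1 were not called. Lin28a itself was not analysed here. In the input table the Lin28a+ columns are named as m6A replicates 1 and 2, so the RNA values of Lin28a+ MuSCs rest on the labels of the Lin28a+ input libraries, which assign them that table. In the m6A table both Lin28a+ columns have the same name, which gives their group but not their replicate. Over 7950 genes the Pearson r of log2(CPM + 1), a description across genes, between a Lin28a+ input column and a control input column was 0.949 to 0.95, against 0.517 to 0.523 with the Lin28a+ m6A-RIP columns. Input values are counts per gene and m6A-RIP values are sums of rows, so this contrast cannot settle the naming.

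In input RNA, 11 of the 36 genes that passed the filter on low counts were higher in Lin28a+ MuSCs and 2 were lower (edgeR quasi-likelihood test, Benjamini-Hochberg adjusted p under 0.05 over 11317 genes). The genes that were higher were Eme1, Fancd2, Fanca, Rad54l, Xrcc2, Ube2t, Fanci, Fancl, Bard1, Mus81 and Usp1, and those that were lower were Fancm and Wrn. Over all genes tested 28.1% were higher and 28.7% lower, against 30.6% and 5.56% of the list. The list's median log2 fold change was 0.35, beside 0.01 over all genes, and 27 of the 36 values were above 0. Fancg, Brca2 and Palb2 were too low to test, with 6.56 and 8.61 counts for Palb2 in control and 8.49 and 7.78 in Lin28a+ MuSCs. DESeq2 called only 2 of these genes, Eme1 and Bard1, both higher, and over all genes it called 13.1% higher and 13.8% lower. Without Lin28a+ library a the edgeR test called 7, all higher, beside 23.1% higher and 23.1% lower over all genes. With every library left out in turn 6 were called (Bard1, Eme1, Fancd2, Rad54l, Usp1 and Xrcc2), all higher, as were 20.7% of all genes. For many genes all 4 input values become whole when multiplied by a small integer k, and using the multiplied values, an alternative chosen after seeing the data, gave 17 higher and 4 lower genes, beside 30.9% higher and 31.4% lower of 11897 genes. Since these are bulk libraries, fewer cells expressing a gene and less RNA per cell cannot be told apart.

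Most S phase and proliferation markers were higher in Lin28a+ MuSCs, while over all genes tested 28.1% were higher and 28.7% lower. Of 24 markers 21 were higher and 2 lower (Mki67 and Rrm2), with a median log2 fold change of 0.97. Among them the replicative helicase subunit Mcm2 rose by 1.23 ± 0.08 (log2 ± SE), and the transcription factor E2f1 rose by 0.91 ± 0.07. The part of cell cycle state in the levels of the Fanconi and recombination genes was not tested. A wider list of 49 other pathway genes gave 17 higher and 5 lower of 48 tested, beside 28.1% and 28.7% of all genes. Its median was 0.29. Among those lower, Rev3l, the catalytic subunit of the translesion polymerase zeta, fell from 7.87 and 8.53 CPM to 2.95 and 3.27 CPM.

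**Figure D1:**
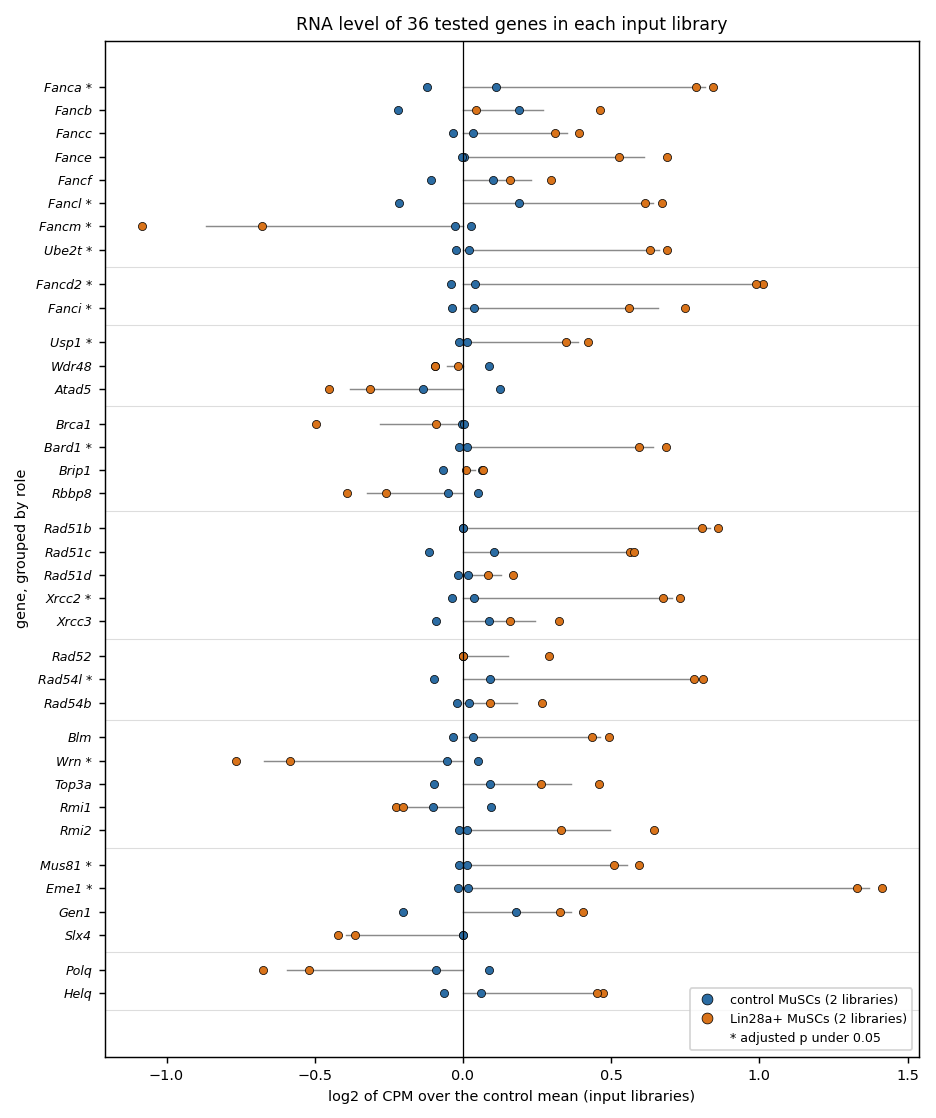
RNA level of each of the 36 tested genes in the 4 input libraries, as log2 of CPM over the mean of the 2 control libraries; points are libraries, grey lines run to the Lin28a+ mean, and an asterisk marks an adjusted p under 0.05. The 2 Lin28a+ libraries of Eme1 lie furthest to the right, the lowest Lin28a+ mean is that of Fancm, and for 32 of the 36 genes the groups do not overlap, which also holds for 84.8% of all genes tested.

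Promoter sequence was available in the RefSeq GRCm38.p6 table for 30 of the 39 genes, in 34 entries of 300 bases each (250 before and 50 after the start). They are shown because promoters of cell cycle genes often carry E2F-type, CCAAT or TTTGAA motifs. On either strand, TTTCCCGC was in 5 of the 34 entries (14.7%) and in 1.07% of 32851 promoters of all genes, and TTCCCGCC, which overlaps it, was in 6 entries (17.6%) and in 2.19%. At least one of these E2F-type matches occurred for 9 genes (Atad5, Bard1, Brca2, Fancb, Fancg, Fancm, Polq, Rad51c and Wdr48). CCAAT was in 58.8% of the entries and 37.4% of all promoters, and TTTGAA was in 11.8% and 17.9%. Of the 8 genes with higher RNA that had an entry, 1 (Bard1) held an E2F-type match and 3 held CCAAT. For the 4 with a match before the start that their entry gives, the surrounding 100 bases are shown 5′ to 3′ on the gene's strand. Matches to any of the 4 motifs are in capitals. The windows of Bard1, Fanca and Rad54l lie partly inside the RefSeq span of the gene.
Bard1 (chr1:71103123-71103222, minus strand): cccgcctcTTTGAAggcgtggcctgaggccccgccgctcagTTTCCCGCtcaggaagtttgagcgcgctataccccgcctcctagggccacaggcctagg
Fanca (chr8:123318577-123318676, minus strand): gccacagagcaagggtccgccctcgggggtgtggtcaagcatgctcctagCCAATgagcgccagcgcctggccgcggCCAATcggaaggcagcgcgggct
Rad54l, the first of its entries (chr4:116123691-116123790, minus strand): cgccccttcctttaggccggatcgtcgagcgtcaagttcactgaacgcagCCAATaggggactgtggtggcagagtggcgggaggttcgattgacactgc
Ube2t (chr1:134962431-134962530, plus strand): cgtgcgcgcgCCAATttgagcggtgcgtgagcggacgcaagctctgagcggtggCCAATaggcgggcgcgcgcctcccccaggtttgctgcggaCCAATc
A match is a description of the letters in this window, and no factor binding was measured.

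Among the 9 core complex genes and the E2 enzyme, 3 of the 8 tested were higher (Fanca, Fancl and Ube2t) and 1 was lower (Fancm). Fanca, a scaffold subunit of the core complex, was at 3.56 and 4.18 CPM in the control libraries against 6.68 and 6.95 CPM in the Lin28a+ libraries (log2 fold change 0.80 ± 0.28). Fancl, the E3 ubiquitin ligase of the complex, was at 4.68 and 3.54 CPM in the control libraries against 6.29 and 6.54 CPM in the Lin28a+ libraries. Both Lin28a+ libraries were above both control libraries for each of these genes, although the 2 control values of Fancl were spread widely. The call for Fanca was lost without control library 1, and that for Fancl without control library 2 or either Lin28a+ library. Ube2t was at 3.75 and 3.86 CPM against 5.9 and 6.13 CPM, and its change of 0.66 ± 0.29 was lost when any single library was left out. Fancm, the DNA translocase that anchors the complex at a stalled fork, went the other way. Its 23.7 and 28.8 counts in control fell to 11.4 and 13.7 in Lin28a+ MuSCs, and the log2 fold change was -0.87 ± 0.35 (adjusted p = 0.0204). The call for Fancm was lost without control library 2 or without Lin28a+ library a. Fancc, an adaptor subunit, was at 1.69 and 1.61 CPM against 2.16 and 2.04 CPM, and Fance, which links the complex to FANCD2, changed by 0.61 ± 0.30. Neither passed the test, nor did Fancb (12.2 and 9.17 CPM against 11.01 and 14.7 CPM, 0.28 ± 0.19) or Fancf (0.23 ± 0.13).

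Both members of the FANCD2-FANCI pair, the target of the ubiquitin ligase, were higher. Fancd2 was at 5.62 and 5.31 CPM in the control libraries against 11.01 and 10.8 CPM in the Lin28a+ libraries (log2 fold change 1.00 ± 0.23, adjusted p = 0.000315). Fanci was at 5.81 and 6.11 CPM against 10.0 and 8.79 CPM (0.66 ± 0.23). The Lin28a+ values of Fancd2 were about 2-fold the control values, and the groups were apart by far more than the libraries within a group. Fanci overlaps the neighbouring gene Polg, and its call was lost without Lin28a+ library a.

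In the deubiquitination group, Usp1 rose and its partner Wdr48 did not pass the test. Usp1, the protease that removes ubiquitin from FANCD2, was at 38.2 and 38.9 CPM in the control libraries against 49.1 and 51.7 CPM in the Lin28a+ libraries, with a log2 fold change of 0.38 ± 0.09 (adjusted p = 0.00116). This was the smallest change among the genes called in RNA, on values that differed little between libraries of a group. Wdr48 was at 15.2 and 13.4 CPM against 13.4 and 14.1 CPM, and its groups overlapped. Atad5, which unloads PCNA and recruits USP1 to it, was at 7.12 and 8.53 CPM against 6.29 and 5.72 CPM (-0.39 ± 0.24) and did not pass the test.

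Of the BRCA proteins and their partners, only Bard1 was called among the 4 tested. Bard1, the obligate partner of BRCA1 in its E3 ligase, had 53.8 and 54.9 CPM in the control libraries against 82.0 and 87.3 CPM in the Lin28a+ libraries, a log2 fold change of 0.64 ± 0.08 (adjusted p = 0.000159). Brca1 itself was at 12.2 CPM in both control libraries and at 8.65 and 11.4 CPM in Lin28a+ MuSCs (-0.28 ± 0.19), so that the 2 partners had values in opposite directions, and Brca1 did not pass the test. Brip1, a helicase that binds BRCA1, changed by 0.04 ± 0.21, and Rbbp8, which starts end resection, changed by -0.33 ± 0.24. Neither passed the test.

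Of 5 recombination mediators (Rad51b, Rad51c, Rad51d, Xrcc2 and Xrcc3), which help strand exchange begin, Xrcc2 was called. Xrcc2 was at 7.49 and 7.88 CPM in control against 12.8 and 12.3 CPM (0.70 ± 0.20). Rad51c lay just outside the threshold at 0.57 ± 0.27, and it was called when libraries were scaled by total counts only. Rad51b changed by 0.82 ± 0.51 on 1.12 and 1.13 CPM in control, and Rad51d and Xrcc3 by 0.12 ± 0.20 and 0.24 ± 0.28. All 5 values lay above 0, and 4 of them did not pass the test. Rad54l, a motor protein that drives strand exchange, was at 8.24 and 7.24 CPM against 13.6 and 13.3 CPM (0.80 ± 0.20). Rad54b (0.18 ± 0.29) and Rad52 (0.15 ± 0.40), an annealing factor, were not called.

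Among the enzymes that separate joined molecules, the structure-specific nuclease subunits Mus81 and Eme1, which work as one enzyme, were both higher. Eme1 was at 4.12 and 4.02 CPM in the control libraries against 10.2 and 10.8 CPM in the Lin28a+ libraries, a 2.58-fold difference and the largest of the 36 genes (log2 fold change 1.37 ± 0.25, adjusted p = 0.000155). Mus81 was at 6.56 and 6.44 CPM against 9.24 and 9.81 CPM (0.55 ± 0.22), and its call was lost when any single library was left out. Wrn, the RecQ helicase mutated in Werner syndrome, was lower, at 11.4 and 10.6 CPM in the control libraries against 6.49 and 7.36 CPM in the Lin28a+ libraries (-0.67 ± 0.22, adjusted p = 0.00396), and its call was lost without Lin28a+ library a. The other RecQ helicase in the list, Blm, was at 5.06 and 4.83 CPM against 6.68 and 6.95 CPM, and its change of 0.46 ± 0.26 did not pass the test. Its complex partners Top3a (0.36 ± 0.21), Rmi1 (-0.22 ± 0.21) and Rmi2 (0.50 ± 0.29), the resolvase Gen1 (0.35 ± 0.23) and the nuclease scaffold Slx4 (-0.39 ± 0.21) were not called. Polq, the polymerase of theta-mediated end joining, was at 4.12 and 4.67 CPM against 2.75 and 3.07 CPM (-0.60 ± 0.34), and the helicase Helq changed by 0.46 ± 0.35. Neither of these 2 was called.

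The span of 14 of the 39 genes overlaps another protein-coding gene in RefSeq, and 6 of these (Eme1, Fanca, Fancd2, Fanci, Fancl and Rad54l) were called in RNA. The sources used here do not say whether counting used strand, so reads of such overlapping genes cannot be told apart.

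In m6A-RIP, 28 of the 39 genes had at least 1 row, and 11 of them were higher and 7 lower in Lin28a+ MuSCs when rows were summed per gene. Over all 9416 genes tested, 32.5% were higher and 33.8% lower, against 39.3% and 25% of the list, and with scaling by total counts 9 of the 28 were higher and 8 lower, beside 25.4% and 40% over all genes. The list's median log2 fold change was 0.09, beside 0.01 over all genes. The 11 genes without a row were Atad5, Brca2, Fancf, Fancg, Fanci, Mus81, Polq, Rad51b, Rad51c, Rad51d and Xrcc3, so 4 of the 5 recombination mediators had none. An m6A-RIP count rises with the amount of RNA as well as with its methylation. Of the 27 genes tested in both assays, 6 were higher in both (Bard1, Eme1, Fancl, Rad54l, Usp1 and Xrcc2) and 2 lower in both (Fancm and Wrn), while Ube2t was higher in RNA and lower in m6A-RIP. Over the 7415 genes tested in both, 23.4% were higher in both and 25.8% lower in both.

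Usp1 was at 103 and 94.7 CPM of m6A-RIP in control and at 131 and 127 CPM in Lin28a+ MuSCs, a log2 fold change of 0.38 ± 0.05 that equalled its RNA change to 2 decimals. Bard1 was at 11.6 and 10.5 CPM against 20.8 and 18.9 CPM (0.84 ± 0.13). Both genes had groups that did not overlap. Fancm was at 10.1 and 9.81 CPM against 6.44 and 6.73 CPM (-0.59 ± 0.16), and Wrn at 7.52 and 7.82 CPM against 5.09 and 5.47 CPM (-0.54 ± 0.17). Palb2, which links BRCA1 to BRCA2, was at 3.97 and 3.71 CPM against 3.31 and 4.03 CPM, and its groups overlapped. Among the other genes higher in both assays, Xrcc2 went from 5.37 and 5.47 CPM to 10.5 and 8.80 CPM (0.83 ± 0.17). Fancl went from 16.0 and 17.5 CPM to 23.7 and 20.9 CPM (0.41 ± 0.12), and Rad54l from 46.6 and 44.2 CPM to 58.2 and 62.1 CPM (0.40 ± 0.07). In each of them both Lin28a+ libraries lay above both control libraries. The lower genes not called in RNA were Brca1 (-0.42 ± 0.09), Rbbp8 (-0.40 ± 0.10), Rmi1 (-0.60 ± 0.20) and Rad54b (-0.34 ± 0.09). Rows have no positions, and Virma, a protein-coding gene 7.78 kb from Rad54b, changed by -0.39 ± 0.07 in input RNA, against 0.18 ± 0.29 for Rad54b. Virma had 4 m6A-RIP rows of its own, and whether rows listed under Rad54b carry reads of Virma was not tested. The higher genes not called in RNA were Fance (0.40 ± 0.06), Top3a (0.44 ± 0.13), Gen1 (0.26 ± 0.09), Slx4 (0.12 ± 0.04) and Rmi2. The m6A-RIP calls for Slx4 and Gen1 were lost in DESeq2, with scaling by total counts (where Slx4 changed by 0.02), and without control library 2 or Lin28a+ library a. Those for Top3a (without control library 1), Rmi1 (without control library 1 or Lin28a+ library a), Wrn (without control library 2 or Lin28a+ library a) and Fancl (without Lin28a+ library a) also rested on single libraries.

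At the level of single rows, each a called m6A region, 18 of the 57 rows of these genes were higher and 10 lower. Over all 18881 rows 30% were higher and 31.8% lower. Scaling by total counts gave 15 higher and 14 lower rows, beside 20.3% and 40.5% of all rows, and moved the median of all rows to -0.15. DESeq2 gave 18 higher and 6 lower, beside 26.3% and 28.1% of all rows. Slx4 was the only gene with rows called in both directions. Of its 8 rows 2 were higher and 4 were lower, and the strongest of the higher ones went from 57.0 and 48.8 CPM to 76.5 and 77.9 CPM (0.54 ± 0.07), while the strongest of the lower ones went from 4.51 and 5.18 CPM to 2.88 and 2.44 CPM (-0.86 ± 0.23). Nlrc3, a protein-coding gene 0.088 kb from Slx4, changed by -1.56 ± 0.41 in input RNA and had 2 m6A-RIP rows of its own. Whether rows listed under Slx4 carry reads of Nlrc3 was not tested. Fancm had 1 of 3 rows lower (-1.08 ± 0.26), and the same held for 1 of 2 rows of Wrn (-0.86 ± 0.23). For Usp1 2 of 3 rows were higher, by 0.56 ± 0.10 and 0.39 ± 0.06, and Bard1 had both rows higher. The 4 rows of Eme1 were all higher, by 0.33 to 0.94.

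**Figure D2:**
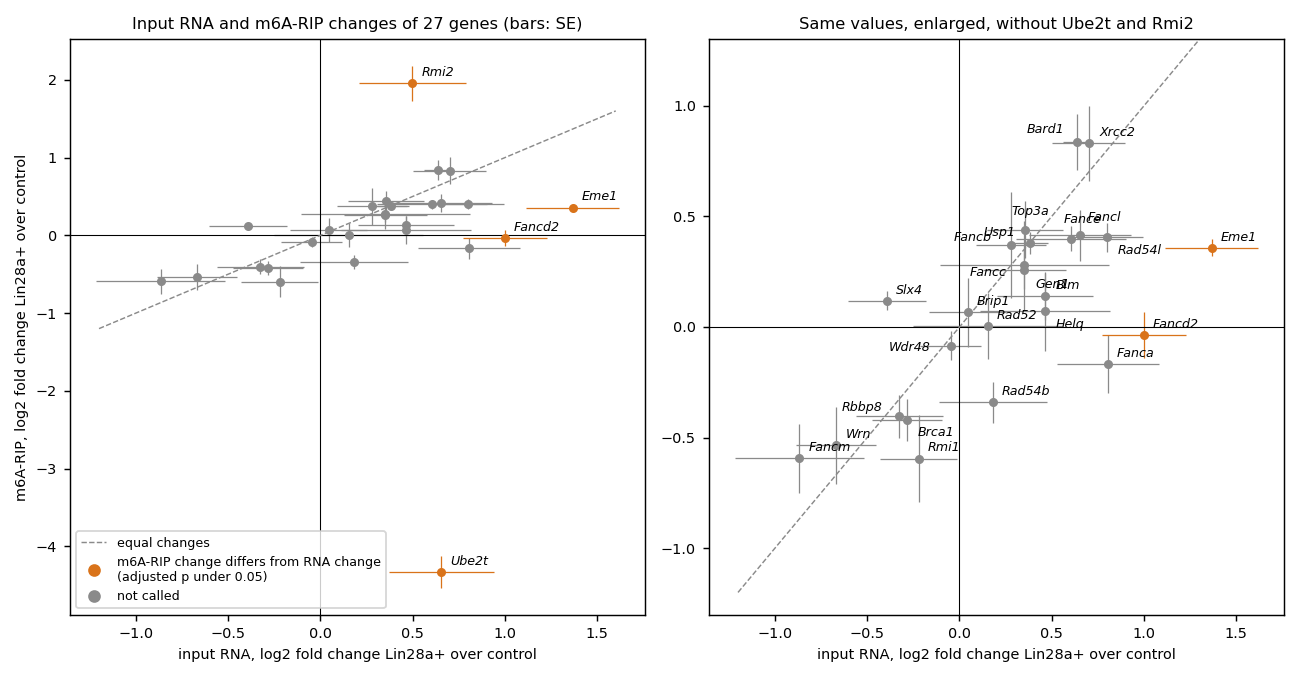
Log2 fold change (Lin28a+ over control) in input RNA on the x axis and in m6A-RIP on the y axis for 27 genes, with SE bars; the right panel enlarges the centre. Orange marks the 4 genes whose m6A-RIP change differed from the RNA change, and Ube2t lies far below the dashed line of equal changes at -4.33 in m6A-RIP.

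A model over both kinds of library asked which m6A-RIP changes differed from the RNA change of the same gene. Of 27 genes, 1 was called higher relative to input (Rmi2) and 3 lower (Eme1, Fancd2 and Ube2t). Over the 7414 genes tested 3.35% were higher and 3.87% lower. Without control input library 2 only Eme1 and Ube2t were called, both lower, beside 2.05% higher and 2.42% lower over all genes. Fancd2 had 21.3 and 21.7 CPM of m6A-RIP in control against 19.8 and 22.0 CPM in Lin28a+ MuSCs, values that overlapped, while its RNA was about 2-fold higher (relative change -1.03 ± 0.24, adjusted p = 0.00488). Fanca had a similar pattern and lay just outside the threshold (-0.97 ± 0.29, adjusted p = 0.0509). For the other genes with a named change, among them Bard1 (0.20 ± 0.11), Fancm (0.28 ± 0.36), Wrn (0.14 ± 0.24) and Usp1 (0.00 ± 0.10), no difference between the 2 changes was called.

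Ube2t had the largest m6A-RIP change in the list. Its single row held 637 and 419 counts in the control libraries and 24 and 26 counts in the Lin28a+ libraries, or 19.3 and 18.9 CPM against 1.04 and 0.867 CPM. The log2 fold change was -4.33 ± 0.21, and relative to input it was -4.98 ± 0.35 (adjusted p = 1.21e-06). The m6A table gives no positions. The protein-coding gene Lgr6, whose nearer end in RefSeq lies 9.12 kb from the end of Ube2t, fell in input RNA from 17.4 and 17.1 CPM to 0.786 and 1.64 CPM (log2 fold change -3.81 ± 0.43). No m6A-RIP row was listed under Lgr6. The neighbour on the other side, Ppp1r12b, changed by -0.43 ± 0.23. Whether the row listed under Ube2t carries reads of Lgr6 was not tested.

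Eme1 stood apart in the level of m6A-RIP. It was at 273 and 272 CPM in the control libraries against 348 and 350 CPM in the Lin28a+ libraries, the highest of the 28 genes, while its input RNA was at 4.12 and 4.02 CPM in control. Its m6A-RIP rose by 0.36 ± 0.04 against 1.37 in RNA (relative change -1.01 ± 0.25). Lrrc59, a protein-coding gene that overlaps the end of Eme1 by 252 bases, was at 403 and 404 CPM of input RNA in control and at 584 and 613 CPM in Lin28a+ MuSCs (0.57 ± 0.03). The single Igf2bp3-RIP peak listed under Eme1 lay inside Lrrc59 and outside Eme1, at chr11:94644757-94644956, with 689 and 2253 counts in control and 1113 and 4380 counts in Lin28a+ MuSCs. The part of Lrrc59 reads in the m6A-RIP rows of Eme1 was not tested. Rmi2, a small subunit of the BLM complex, had 63 and 32 counts of m6A-RIP in control and 153 and 199 counts in Lin28a+ MuSCs (log2 fold change 1.96 ± 0.23). Its change relative to input, 1.45 ± 0.34, was lost in DESeq2 and without any one of 3 input libraries. These neighbours were looked up after the values of the 4 genes were seen.

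Of the 39 genes, 17 had a Lin28a-RIP peak (43.6%), 19 an Igf2bp3-RIP peak (48.7%) and 28 an m6A-RIP row (71.8%). Over 14821 symbols of the RNA table the shares were 20.3%, 26.5% and 53.6%. Both proteins were found on 15 genes (Atad5, Bard1, Blm, Brca1, Brca2, Brip1, Fancb, Fancm, Gen1, Palb2, Polq, Rad54b, Usp1, Wdr48 and Wrn), and 12 of these also had an m6A-RIP row. Lin28a alone was found on Fancd2 and Rad54l, and Igf2bp3 alone on Eme1, Fancc, Rbbp8 and Slx4. The 18 genes with neither protein included all 5 recombination mediators. Of these 18, 17 were tested in RNA, of which 6 were higher and 0 lower, beside 33.6% and 20.3% of all 7012 genes with neither protein that were tested. Among the 15 genes with both proteins, 13 were tested in RNA, of which 2 (Bard1 and Usp1) were higher and 2 (Fancm and Wrn) lower, beside 15.3% and 48.9% of all 2289 genes with both proteins that were tested. Peak calls depend on transcript abundance and length, which were not matched in these shares.

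The tables name a gene for each peak, and not every peak lay in the gene it was listed under. In mm10 coordinates, 101 of 114 Lin28a-RIP peaks lay in the RefSeq span of the named gene or touched it. The other 13 were all listed under Rad54b and lay in Virma, a subunit of the m6A writer complex 7.78 kb away, which left Rad54b with 2 peaks of its own. For Igf2bp3-RIP 78 of 83 peaks lay in their gene, and the 3 peaks of Rad54b (in Virma), the peak of Eme1 (in Lrrc59) and the peak of Fancc (in Ptch1) did not. With only peaks in the named gene, 17 genes had a Lin28a-RIP peak, 16 an Igf2bp3-RIP peak and 14 both. In the other direction, 4 Lin28a-RIP peaks and 1 Igf2bp3-RIP peak inside Atad5 were listed under Tefm, 2 Lin28a-RIP peaks inside Fancd2 under Fancd2os and 1 inside Fanci under Polg.

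**Figure D3:**
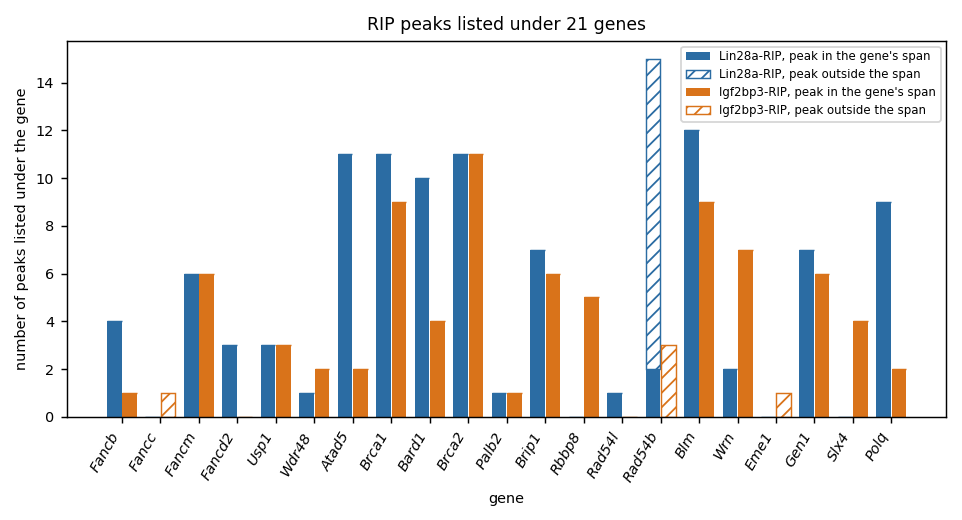
Number of Lin28a-RIP (blue) and Igf2bp3-RIP (orange) peaks listed under each of the 21 genes that had any; hatched bars are peaks outside the RefSeq span of the gene. Blm, Brca1, Brca2 and Atad5 carry 11 or 12 Lin28a-RIP peaks in their span, and 13 of the 15 peaks of Rad54b are hatched.

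The peaks on these genes were shallow for their tables. The median Lin28a-RIP peak inside its gene held 0.854 counts per base beside 2.23 over all peaks, and the median Igf2bp3-RIP peak 0.616 beside 1.53. The densest Lin28a-RIP peaks inside a listed gene were in Brca1 (chr11:101507999-101508398, 1043 and 963 counts, 2.51 counts per base) and Usp1 (chr4:98930748-98931403, 1631 and 1570 counts, 2.44 counts per base). Usp1 also had the densest Igf2bp3-RIP peak in its own span, at chr4:98930749-98931427, which held 966 and 1766 counts in control and 1625 and 3773 counts in Lin28a+ MuSCs. The same 655 bases of Usp1 were thus covered in both tables. The widest Lin28a-RIP peak was the one at chr11:101523378-101526772 in Brca1, with 3395 bases and 6956 and 6292 counts, and 3 Igf2bp3-RIP peaks lay wholly inside it. In Atad5 a Lin28a-RIP peak of 1944 bases (2001 and 2169 counts) lay wholly inside an Igf2bp3-RIP peak of 2007 bases. Brca2 had a Lin28a-RIP peak of 2877 bases with 1500 and 1437 counts, which 3 Igf2bp3-RIP peaks overlapped. Brca1 and Brca2 are known for a very long central exon, and whether these peaks follow exon borders was not tested.

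Counting an overlap of 1 base or more, 51 of the 114 peaks of Lin28a-RIP were shared with Igf2bp3-RIP (44.7%), and 59 of the 83 peaks of Igf2bp3-RIP were shared with Lin28a-RIP (71.1%). Over all peaks the shares were 52.4% and 60.4%. In Brca2 all 11 Igf2bp3-RIP peaks overlapped a Lin28a-RIP peak, in Blm all 9 and in Gen1 all 6. In Wrn only 2 of 7 did, and both of the Lin28a-RIP peaks of Wrn were among the shared ones (159 and 127 counts, and 220 and 178 counts). Fancm had 6 peaks in each table and shared 3 of them, the tallest at chr12:65105612-65106753 with 611 and 489 Lin28a-RIP counts. The single Lin28a-RIP peak of Palb2 (121 and 111 counts) also overlapped its single Igf2bp3-RIP peak. Of 91 Lin28a-RIP peaks in genes with a known strand, 22 lay beyond 90% of the gene's length from its start (24.2%), and 15 of 63 Igf2bp3-RIP peaks did (23.8%). In Bard1 5 of the 10 Lin28a-RIP peaks lay there, and its other 5 were spread over the rest of the gene.

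**Figure D4:**
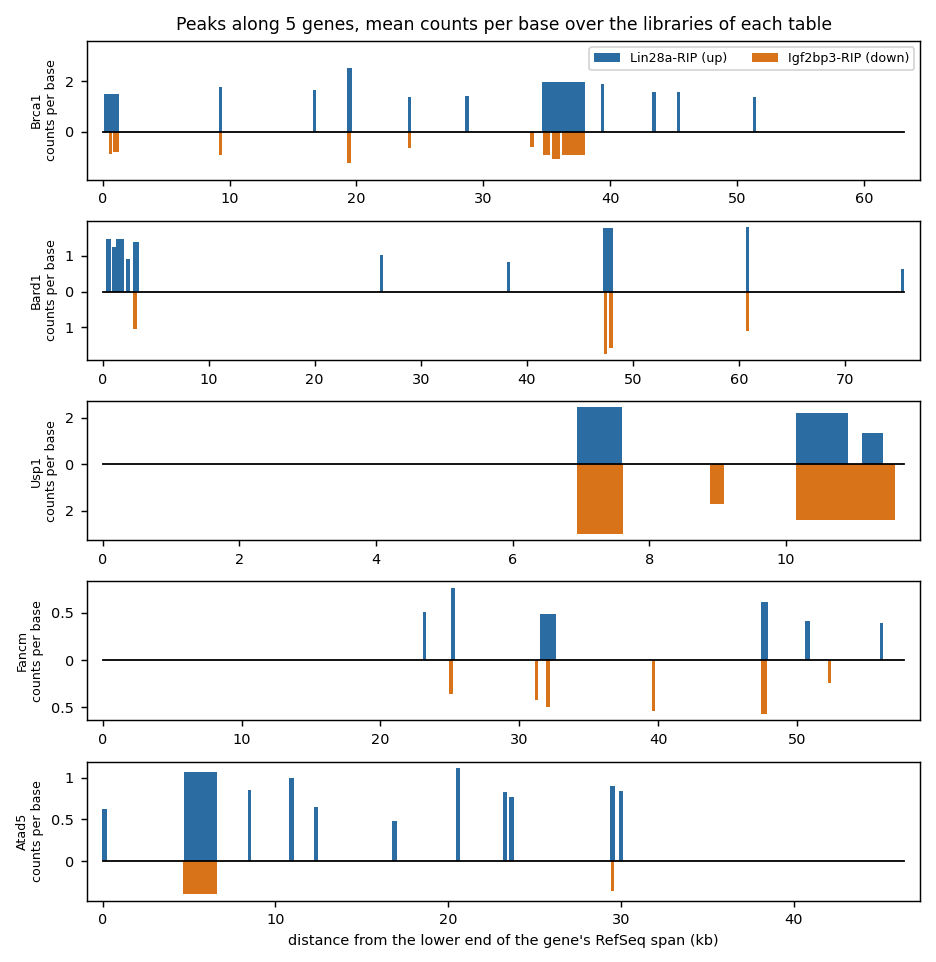
Lin28a-RIP (blue, up) and Igf2bp3-RIP (orange, down) peaks along Brca1, Bard1, Usp1, Fancm and Atad5, with distance in kb from the lower end of the RefSeq span on the x axis and mean counts per base on the y axis. The wide block in Brca1 is the Lin28a-RIP peak of 3395 bases, and most orange blocks lie under a blue one.

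Polq had 9 Lin28a-RIP peaks, the tallest with 1196 and 1067 counts, and 2 Igf2bp3-RIP peaks. Gen1 had 7, the tallest with 1492 and 1400 counts, and Brip1 7 with 351 and 315 counts in the tallest. Fancd2 had 3 peaks of 220 to 278 counts in the first library, none of which overlapped an Igf2bp3-RIP peak, and Rad54l had 1 peak of 127 and 115 counts. Fancb had 4 peaks, the tallest with 369 and 364 counts, and Wdr48 had 1 with 255 and 269 counts. The tallest of the 12 peaks of Blm held 1306 and 1244 counts. The 2 Lin28a-RIP libraries gave similar counts at the peaks whose counts are given here. Some other peaks of these genes differed more, such as a Blm peak with 344 and 209 counts. No Lin28a-RIP library from control MuSCs was analysed here, so these values carry no comparison between the groups.

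In Igf2bp3-RIP, none of the 83 peaks of these genes was called between Lin28a+ and control MuSCs by edgeR or by DESeq2 without a replicate block, and 4 had an unadjusted p under 0.05 (2 in Bard1, 1 in Gen1 and the peak listed under Fancc). Of all 19465 peaks edgeR called 0.0616% higher and 0.0616% lower, and 5.22% had an unadjusted p under 0.05. DESeq2 called 0.57% higher and 0.781% lower, and with 1 library left out edgeR called 108 to 193 peaks in all, none of them among the 83. With the replicate number as a block edgeR called 6 of the 83, all higher (4 in Bard1, 1 in Gen1 and 1 in Usp1), beside 3.94% higher and 6.28% lower of all peaks. The peaks of a gene share its transcript and libraries, so their common sign is not independent evidence. The Bard1 peak with the highest mean count, at chr1:71030398-71030780, held 72 and 476 counts in control against 194 and 862 in Lin28a+ MuSCs, where library 1 was the shallower one in both groups. In Bard1 the 4 peaks had log2 fold changes of 0.65 to 0.89 with SEs of 0.32 to 0.45, and in Usp1 the 3 peaks had 0.48 to 0.69. All 6 peaks of Fancm were below 0 (-0.78 to -0.39), as were all 9 of Brca1 (-0.76 to -0.22) and all 4 of Slx4 (-0.81 to -0.43). Of 12 genes with 3 or more peaks, 3 had all values above 0 (Bard1, Gen1 and Usp1) and 4 all below 0 (Brca1, Fancm, Rad54b and Slx4). The peaks listed under Rad54b lie in Virma. The same shares over all genes were not computed. Wrn, which was lower in RNA, had 6 of 7 peaks above 0 (-0.07 to 0.46).

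**Figure D5:**
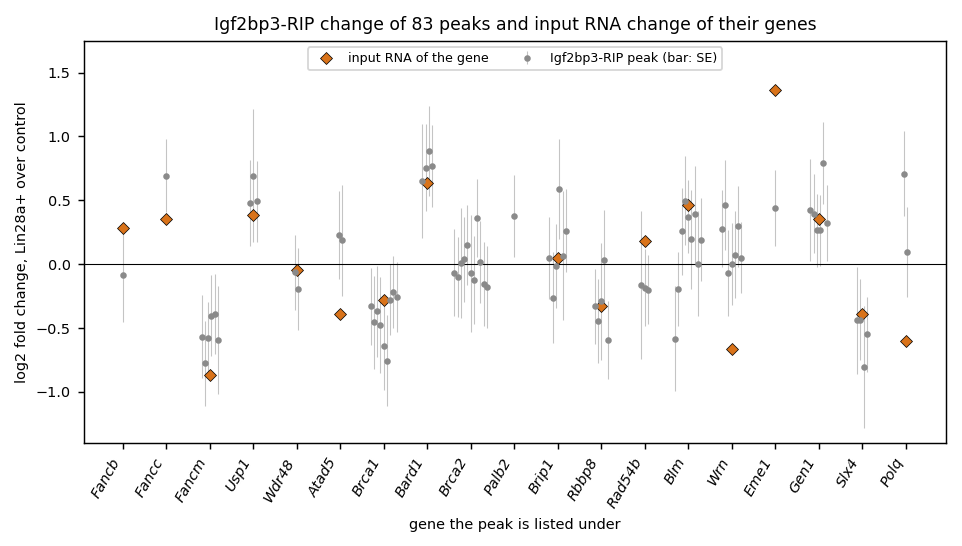
Log2 fold change (Lin28a+ over control) of each of the 83 Igf2bp3-RIP peaks by the gene it is listed under, with SE bars, and the input RNA change of the gene as an orange diamond. The peaks of Bard1 and Usp1 lie above 0 and those of Fancm, Brca1 and Slx4 below 0, with wide error bars, and no peak passed the test without the replicate block; Brca2 and Palb2 have no diamond because their RNA was not tested.

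Relative to input, none of the 17 genes tested was called in Igf2bp3-RIP by edgeR or by DESeq2, and 2 had an unadjusted p under 0.05. Of 3713 genes, edgeR called 0.485% higher and 0.862% lower and DESeq2 0.754% and 1.08%, and 25% had an unadjusted p under 0.05. Those 2 were Eme1 (-1.16 ± 0.38, adjusted p = 0.129 in edgeR), whose peak lies in Lrrc59, and Polq (0.79 ± 0.35, adjusted p = 0.15). Both were called without Lin28a+ Igf2bp3-RIP library 1, when 8.16% of all genes were called higher and 8.46% lower. Eme1 was also called without Lin28a+ Igf2bp3-RIP library 2, when 3.31% were higher and 3.15% lower. Bard1 (-0.10 ± 0.40), Usp1 (-0.12 ± 0.27), Fancm (0.12 ± 0.35) and Wrn (0.56 ± 0.25) had differences from their RNA change that did not pass the test.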

How the data were processed

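The series comprised 14 libraries of control or Lin28a+ MuSCs. The paper's methods or the submitters' processing notes name FastQC, HISAT2 2.0.4, MACS2 1.4.3 and DESeq2 1.42.0, and the builds GRCh38 and mm10; identifiers and coordinates are mouse, so peaks were read as mm10. The deposited RIP tables hold whole-number counts for one set of peaks or rows in every library, and how the authors joined peaks across libraries is not given in the sources used here. The deposited input table holds expected counts, not whole, which were rounded. Many look like means over transcripts: for 6773 of 14837 genes (45.6%) all 4 values were whole multiples of 1/k (k up to 20, tolerance 0.01). The 2 Lin28a+ input columns are named as m6A replicates 1 and 2, and both Lin28a+ m6A-RIP columns are named as m6A replicate 1. Since these names do not match the labels, the columns were mapped to their group alone and are called a and b. For input the group came from the table that the labels of the samples name, and for m6A-RIP from the column name.

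edgeR 4.0.16 in R 4.3.3 was fitted over whole tables, with filterByExpr, TMM scaling (within each assay), glmQLFit and glmQLFTest, and Benjamini-Hochberg adjustment at 0.05. Fold changes relative to input came from an interaction term. CPM of single genes and rows are TMM-scaled, while the summed marker levels and the comparison of input columns use plain library totals. The SE is the larger of the absolute log2 fold change over the root of the quasi-F statistic and the counting SE of the summed counts. DESeq2, other scalings and filters, and each library left out were alternatives. On simulated data with 200 changed genes or peaks, the fits recovered 180 at 2-fold for RNA (10409 genes). At 2-fold they recovered 200 for m6A-RIP genes and 182 for m6A-RIP relative to input (7134 genes). At 8-fold they recovered 200 Igf2bp3-RIP peaks and 199 genes in Igf2bp3-RIP relative to input. Each fit made 5 to 16 false calls. These figures describe the simulated counts only. Recovery and false calls on the deposited input values, which were not whole, were not tested. Igf2bp3-RIP was simulated at 8-fold only, while the largest log2 fold change of a listed peak was 0.89 (in Bard1). Its figures therefore cannot show whether changes of the observed size would be found. Overlap needed 1 base. Genes were described by role. Values per library were given for Usp1, Fancm, Bard1, Palb2 and Wrn, and for genes called in RNA and m6A-RIP or relative to input, or with a Lin28a-RIP peak, or with the densest or overlapping peaks; others by their change. Genes outside this rule were named after their values were seen. The 39 genes, the lists and the tests were chosen with earlier results of these data known. The wider pathway list is given by counts, and 1 of its genes is not reported here.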

Additional observations from a re-analysis of the deposited data

How the results depend on the processing

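Of the 13 RNA calls, DESeq2 kept 2. Multiplying input values by k, an alternative chosen after seeing the data, gave 21 (17 higher and 4 lower, all 13 among them). That was beside 30.9% higher and 31.4% lower of all genes. The cause was not tested. Leaving out 1 library at a time gave 7 to 10 RNA calls, a median RNA change of 0.332 to 0.397, 14 to 18 m6A-RIP genes, 22 to 26 m6A-RIP rows, 2 to 5 genes relative to input, a median m6A-RIP change of 0.0747 to 0.132, 0 Igf2bp3-RIP peaks, and 0 to 2 genes in Igf2bp3-RIP relative to input. In these fits the lone library of a group is assumed to vary like the others. Scaling by total counts shifted the median m6A-RIP change of all genes from 0.01 to -0.09 and turned that of the list from 0.09 to -0.00723, and it moved the median of all genes in Igf2bp3-RIP relative to input from 0.02 to 0.16. Requiring 100 counts in every library left 22 of the 51 Lin28a-RIP peaks that overlapped an Igf2bp3-RIP peak, since fewer peaks were compared. With the replicate number of Igf2bp3-RIP as a block, 6 peaks were called, all higher (4 in Bard1, 1 in Gen1 and 1 in Usp1), beside 3.94% higher and 6.28% lower of all peaks. The numbers are only labels: the differences between replicates 2 and 1 in the 2 groups had a Pearson r of 0.70 across peaks, which are not independent, and there were only 2 pairs. No paired analysis was possible for input and m6A-RIP because the Lin28a+ columns of those tables are named as m6A replicates 1 and 2 in the input table, and with 1 shared name in the m6A table, which does not tie a column to a numbered sample. By direction, DESeq2 took the lower m6A-RIP rows from 10 to 6 and the higher genes relative to input from 1 to 0, and leaving out 1 library gave 0 to 2 lower genes in RNA and 0 to 1 higher genes relative to input. Over all Igf2bp3-RIP peaks the 24 calls became 263 in DESeq2, 108 to 193 with 1 library left out and 0 when 10 counts were required in every library. Over all genes in Igf2bp3-RIP relative to input the 50 calls became 114 with scaling by total counts and 0 to 617 with 1 library left out. Under the other alternatives each total of genes, rows or peaks called in the list stayed within 1.5 times, and every gene called in RNA, m6A-RIP or relative to input kept its direction. In control input, Fancm held 23.7 and 28.8 counts, Ube2t 19.5 and 24.5, and Eme1 22.4 and 24.6.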
